A study of Mus musculus with 4 samples.

Results

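Gja1, Gjb2, Gjb5 and Gjb6 encode connexins known from mouse keratinocytes (connexin 43 for Gja1, connexin 26 for Gjb2 and connexin 30 for Gjb6). They were taken by name, and they are 4 of the 20 connexin genes listed and 4 of 11969 genes tested. RNA-seq was made of the stem cells of skin squamous cell carcinomas in mice (strain C57BL/6 X FBV), and the tumours carried TetO-Hras together with the LV-rtTA3-TGF-beta reporter. Tumour cells were first depleted of other lineages, then sorted on integrin alpha6 and CD44 and split by mCherry, the reporter of transforming growth factor beta (TGF-beta) signalling. Reporter positive cells were labelled as having TGF-beta signalling and reporter negative cells as lacking it; genotype, strain, tissue and sort were otherwise the same. Each of 2 numbered experiments gave 1 reporter positive and 1 reporter negative library, so n = 2 in each group. The labels give neither the age nor the number of animals, nor whether the experiments used separate ones, so p-values cover only the spread between these libraries. The comparison asks how the carcinoma stem cells with TGF-beta signalling differ from those without it.

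Connexin proteins assemble as rings, called hemichannels, in the cell membrane, and hemichannels of neighbouring cells join into gap junction channels that pass ions and small molecules from cell to cell. Connexin 43, made by Gja1, is widespread and is the main connexin of basal keratinocytes, while connexins 26 and 30, made by Gjb2 and Gjb6, are low in resting interfollicular epidermis and increase in wounded or hyperproliferative epidermis. Mutations of human GJB2 and GJB6 cause deafness and skin disease.

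Levels are given in FPKM, fragment counts divided by transcript length and by sequencing depth, which makes genes of different length comparable. Differences are on the log2(FPKM + 1) scale, reporter positive minus reporter negative. In reporter positive cells Gjb2 and Gjb6 rose and formed a larger part of all connexin mRNA. Gja1 and Gjb5 had lower values in both reporter positive libraries, but neither passed the test. The adjusted p of 0.05 that served as the threshold was reached by 305 genes in the upward direction, 2.55% of those tested, and by 302 in the downward direction, 2.52%, or 5.07% in all. Among the 4 connexins 2 rose, 0 fell and 2 did not pass. Their median difference was 0.45, beside -0.18 for all genes tested. Rescaling the libraries by the median of gene ratios put the median of all genes at 0.03 and that of the 4 connexins at 0.68, and 455 of the 657 genes that then passed were higher.

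The stretches upstream of the genes are shown for the connexins that rose and for Gja1, since they differ in base composition. They run from 250 bases before the RefSeq start of transcription to 30 bases after it, on build GRCm38.p6, and are written 5′ to 3′ on the strand of the gene. That build differs from the mm9 build of the expression files, so no position was carried between them. Capitals mark matches on either strand to TGANTCA (the AP-1 motif), GGGCGG (the GC box) and CAGGTG (an E-box); no 2 of the marked matches overlap.
Gja1, chr10:56377050-56377329, plus strand: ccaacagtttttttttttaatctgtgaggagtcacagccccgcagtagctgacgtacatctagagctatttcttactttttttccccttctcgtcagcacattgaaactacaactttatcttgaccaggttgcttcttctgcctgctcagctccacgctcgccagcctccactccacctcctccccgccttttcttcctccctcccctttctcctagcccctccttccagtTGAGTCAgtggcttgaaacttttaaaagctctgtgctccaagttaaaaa
Gjb2, chr14:57104673-57104952, minus strand: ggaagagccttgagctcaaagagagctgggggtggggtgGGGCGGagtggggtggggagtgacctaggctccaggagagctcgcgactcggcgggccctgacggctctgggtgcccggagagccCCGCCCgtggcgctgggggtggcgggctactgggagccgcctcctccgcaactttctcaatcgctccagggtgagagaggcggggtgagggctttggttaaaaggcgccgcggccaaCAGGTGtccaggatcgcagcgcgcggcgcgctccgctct
Gjb6, chr14:57133582-57133861, minus strand: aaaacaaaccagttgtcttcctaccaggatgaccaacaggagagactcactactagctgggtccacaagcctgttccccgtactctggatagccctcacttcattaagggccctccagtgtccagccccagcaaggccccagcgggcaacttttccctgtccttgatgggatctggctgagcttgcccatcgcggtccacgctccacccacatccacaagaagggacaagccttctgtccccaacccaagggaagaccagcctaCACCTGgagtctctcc
The Gjb2 stretch was the richest in C and G, at 70.0%, against 57.1% for Gjb6 and 47.9% for Gja1. It held 25 CpG dinucleotides, more than in 84.6% of 32851 promoters of the same length. The Gjb6 stretch held 5 and the Gja1 stretch 6. Gjb2 had GC boxes at positions -211 and -126 from the start, and a GC box was found in 34.7% of all promoters. An E-box lay at position -9 in Gjb2 and at position 15 in Gjb6, and 19.1% of all promoters held one. An AP-1 motif was found at position -19 in Gja1 and in 7.46% of all promoters. The short Smad box AGAC, on either strand, matched 4 times in Gjb6 and 0 times in Gja1 and Gjb2, but 86.2% of all promoters hold it. In the same window of Gjb5 (chr4:127358135-127358414, minus strand) AGAC matched 2 times and the 3 marked motifs 0 times. GGAATG, bound by TEAD factors, had 0 matches in the 4 windows and was found in 13.9% of all promoters. These are matches of letters and do not show that a factor is bound.

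Gjb2 (ENSMUSG00000046352, mm9 chromosome 14, 57717437 to 57723539, minus strand) encodes connexin 26. It stood at 1329 and 1406 FPKM in the reporter positive libraries of experiments 1 and 2, against 563 and 432 FPKM in the reporter negative ones. Both reporter positive libraries were more than 2-fold above both reporter negative libraries. The means were 1368 ± 54.7 FPKM in reporter positive and 497 ± 92.5 FPKM in reporter negative cells (SD, n = 2 each). The log2 fold change was 1.47 ± 0.20 (SE) with a limma adjusted p of 0.0333. It was 1.24 in experiment 1 and 1.70 in experiment 2, or 2.36-fold and 3.26-fold in FPKM. Among all genes tested, 97.8% had a lower log2 fold change. Gjb2 was the 74th and 54th most abundant gene tested in the reporter positive libraries and the 216th and 224th in the reporter negative ones.

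Gjb6 (ENSMUSG00000040055, mm9 chromosome 14, 57742140 to 57752448, minus strand) encodes connexin 30, which can share channels with connexin 26. It stood at 157 and 164 FPKM in the reporter positive libraries and at 45.6 and 29.5 FPKM in the reporter negative ones. The reporter positive libraries nearly coincided, whereas the reporter negative libraries were apart, with the lower value in experiment 2. The means were 160.1 ± 4.91 FPKM in reporter positive and 37.6 ± 11.4 FPKM in reporter negative cells (SD, n = 2 each). The log2 fold change was 2.09 ± 0.23 (SE) with a limma adjusted p of 0.0211, the highest rise of the 4 connexins. It was 1.76 in experiment 1 and 2.43 in experiment 2, or 3.43-fold and 5.54-fold in FPKM. A lower log2 fold change was found for 99.0% of genes tested.

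**Figure D1:**
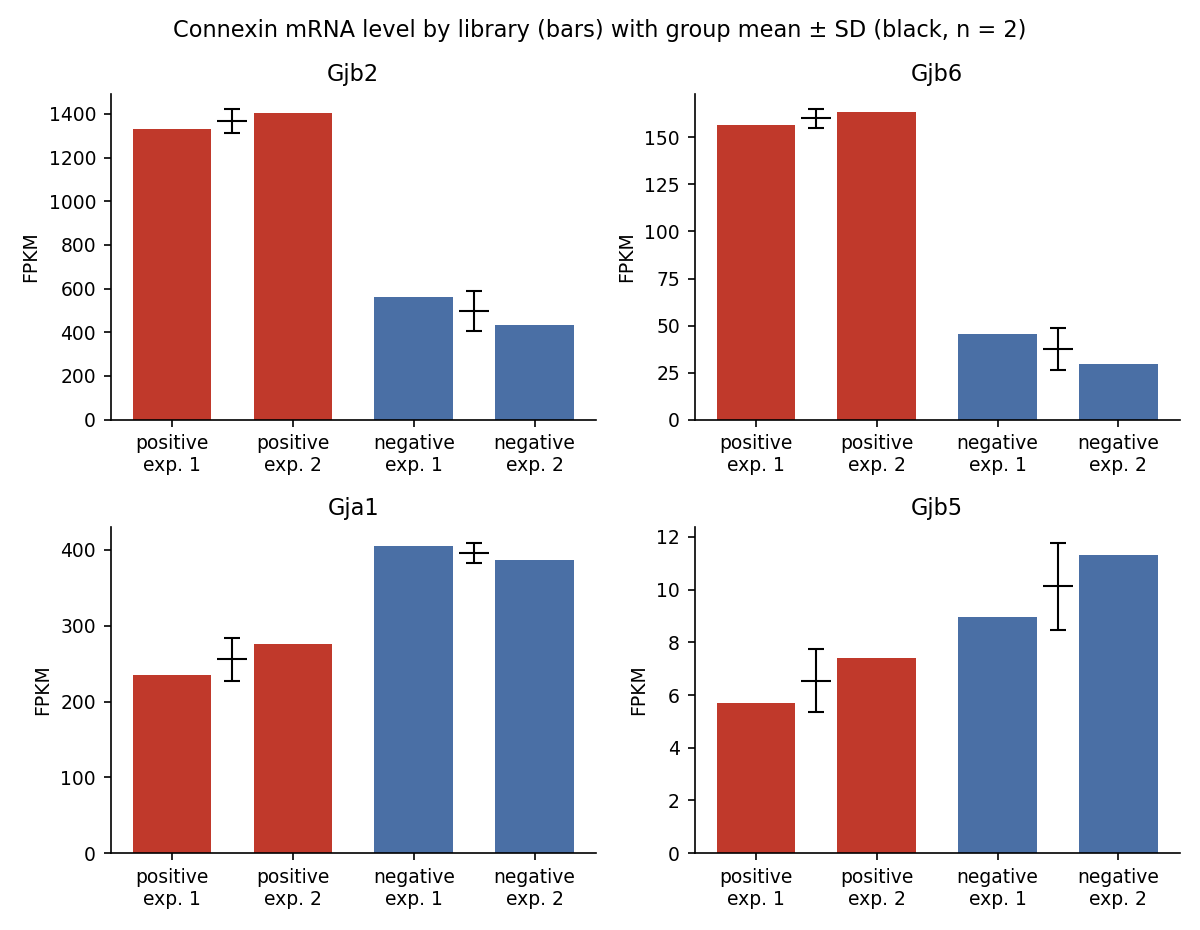
FPKM (vertical axis, from 0, its own scale for each gene) of Gjb2, Gjb6, Gja1 and Gjb5 in each library, with reporter positive libraries in red and reporter negative libraries in blue. Black marks give the group mean ± SD (n = 2). For Gjb2 and Gjb6 both red bars stand far above both blue bars, and for Gja1 and Gjb5 both stand below them.

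With 1 library left out a group holds a single library, and fewer of all genes passed. A call of Gjb2 or Gjb6 lost there was thus lost along with those of many other genes. With any 1 library left out, the Gjb2 adjusted p was 0.0710 to 0.233. For Gjb6 it was 0.102 and 0.116 when the reporter positive library of experiment 1 or 2 was left out and 0.0754 when the reporter negative library of experiment 2 was. It stayed under the threshold, at 0.0402, without the reporter negative library of experiment 1. The log2 fold changes in those fits were 1.28 to 1.66 for Gjb2 and 1.79 to 2.40 for Gjb6. With transcripts named by an Ensembl identifier alone, the adjusted p was 0.0794 for Gjb2 (log2 fold change 1.47) and 0.220 for Gjb6 (2.11 ± 0.64).

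The files give an interval beside each FPKM. For Gjb2 the FPKM lay above its own interval in both reporter positive libraries, at 1329 FPKM with bounds of 1227 and 1246 FPKM in experiment 1 and at 1406 FPKM with bounds of 1300.4 and 1320.4 FPKM in experiment 2. It lay inside in reporter negative experiment 1 and just under the lower bound, by less than the width of the interval, in reporter negative experiment 2. With the centre of each interval in place of the FPKM, an alternative chosen after these values were seen, the log2 fold change of Gjb2 was 1.35 and its limma adjusted p 0.0416. A Gjb6 transcript assembled from the reads in reporter positive experiment 1, at 72.2 FPKM, also lay above its bounds of 64.0 and 70.6 FPKM. With interval centres the log2 fold change of Gjb6 was 2.07 (limma adjusted p = 0.0219). Gja1 in reporter negative experiment 2, at 386.4 FPKM, lay just under its lower bound of 386.6 FPKM.

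Gja1 (ENSMUSG00000050953, mm9 chromosome 10, 56097106 to 56110225, plus strand) encodes connexin 43. It stood at 236 and 275 FPKM in the reporter positive libraries, against 406 and 386 FPKM in the reporter negative ones. The groups did not overlap, and the reporter positive libraries were the lower ones in both experiments. Groups that did not overlap were common, at 57.9% of all genes tested, with the reporter positive libraries lower for 42.6% and higher for 15.3%. The means were 256 ± 28.2 FPKM in reporter positive and 396 ± 13.7 FPKM in reporter negative cells (SD, n = 2 each). The log2 fold change was -0.63 ± 0.16 (SE) with a limma adjusted p of 0.0915. With the experiments as blocks the adjusted p was 0.0478, and in that fit 10.4% of all genes tested passed. After median-of-ratios scaling the log2 fold change was -0.40 (adjusted p = 0.291).

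Gja1 is also made by fibroblasts and endothelial cells. The summed FPKM of 10 fibroblast markers was 18.2 and 40.5 in reporter positive and 132 and 265 in reporter negative libraries, and 0 of 7 tested markers rose, 2 fell and 5 did not pass. The 2 that fell were Postn, the matrix protein periostin (4.78 and 11.0 FPKM in reporter positive, 89.7 and 191 FPKM in reporter negative libraries), and Thy1, a surface glycoprotein (0.521 and 1.80 FPKM in reporter positive, 15.2 and 32.5 FPKM in reporter negative libraries). Without these 2 the sums were 12.9 and 27.7 FPKM in reporter positive and 27.4 and 41.7 FPKM in reporter negative libraries, and the groups overlapped. The fibrillar collagens Col1a1 (3.73 and 5.97 FPKM in reporter positive, 7.56 and 10.0 FPKM in reporter negative libraries), Col1a2 and Col3a1 did not pass. Dcn, the decorin gene, was at 1.79 and 3.61 FPKM in reporter positive and 3.36 and 2.61 FPKM in reporter negative libraries, so the experiments went opposite ways. Pdgfra, another of the markers, was at 0.154 and 0.444 FPKM in reporter positive and 0.174 and 0.2004 FPKM in reporter negative libraries. The groups overlapped for Pdgfra and Lum. Pdgfrb (0.0268 and 0.171 FPKM in reporter positive, 0.298 and 0.503 FPKM in reporter negative libraries) was lower in reporter positive libraries. So was Fap (0.0279 and 0.0301 FPKM, against 0.123 and 0.0910 FPKM). Pdgfra, Pdgfrb and Fap were too low to be tested. Summed endothelial markers were at 3.09 and 3.64 FPKM in reporter positive and 12.6 and 13.7 FPKM in reporter negative libraries, with 0 of 2 tested markers passing. Egfl7, at 7.05 FPKM in reporter negative experiment 1 and listed at 0 in the other libraries, made up most of the first reporter negative sum. The part of these cells in the Gja1 values was not tested. In bulk libraries fewer cells of a type and less RNA per cell cannot be told apart.

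Gjb5 (ENSMUSG00000042357, mm9 chromosome 4, 127032053 to 127035425, minus strand) encodes a connexin of stratified epithelia. It stood at 5.69 and 7.40 FPKM in the reporter positive libraries and at 8.95 and 11.3 FPKM in the reporter negative ones. The groups did not overlap, with the reporter positive libraries lower, and in both groups experiment 2 had the higher value. The means were 6.55 ± 1.21 FPKM in reporter positive and 10.1 ± 1.66 FPKM in reporter negative cells (SD, n = 2 each). The log2 fold change was -0.56 ± 0.22 (SE), with -0.57 in experiment 1 and -0.55 in experiment 2, and the limma adjusted p was 0.197. After median-of-ratios scaling it was -0.35. The interval of a Gjb5 value reached 10.2% to 12.8% to either side of its centre. Each interval belongs to a single library, so it does not cover the spread between libraries.

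**Figure D2:**
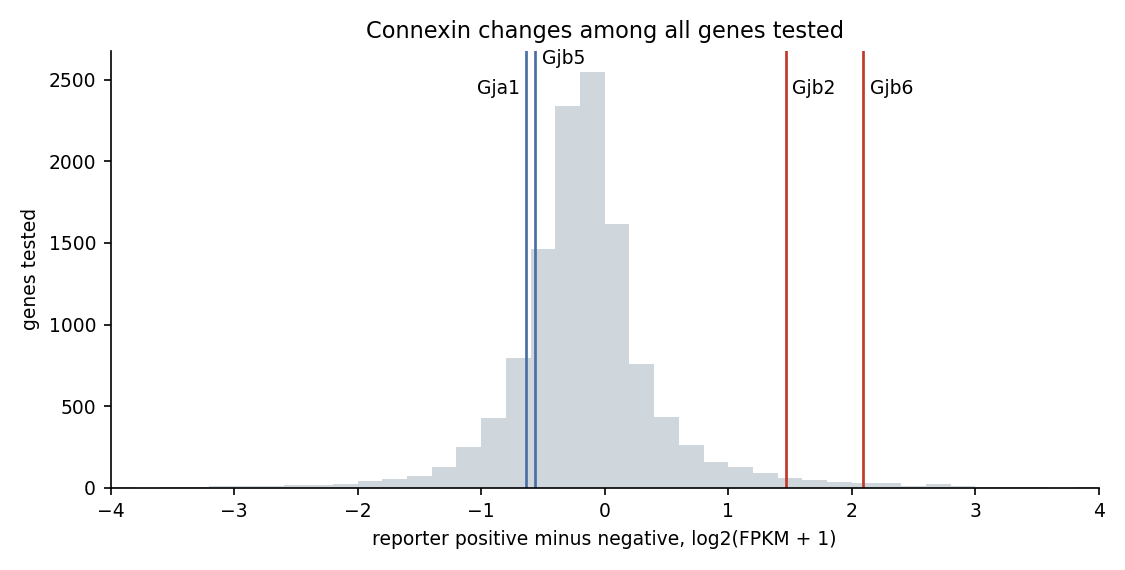
Number of genes tested (vertical axis) by log2 fold change, reporter positive minus reporter negative (horizontal axis, bins of 0.2 between -4 and 4), with vertical lines at the 4 connexins. Gjb2 at 1.47 and Gjb6 at 2.09 lie in the upper tail, and Gja1 at -0.63 and Gjb5 at -0.56 lie on the lower flank of the bulk of genes, whose median is -0.18.

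The order of levels was Gjb2, Gja1, Gjb6 and Gjb5 in each of the 4 libraries. In reporter positive cells Gjb2 exceeded Gja1 5.64-fold in experiment 1 and 5.11-fold in experiment 2. In reporter negative cells it did so 1.39-fold and 1.12-fold, and the difference of those means was little more than the SD of Gjb2. Gjb6 was at 0.665 and 0.594 of the Gja1 level in reporter positive libraries, against 0.112 and 0.0764 in reporter negative ones. The ratio of Gjb2 to Gjb6 was 8.48 and 8.60 in reporter positive and 12.3 and 14.6 in reporter negative libraries, since Gjb6 had the larger fold change. Gja1 exceeded Gjb5 41.4-fold and 37.2-fold in reporter positive and 45.4-fold and 34.2-fold in reporter negative libraries. These ratios within a library do not depend on how libraries are scaled; with 2 libraries against 2 an exact permutation test cannot go below 0.33, so none was made.

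All 20 connexin genes together summed to 1753 and 1886 FPKM in reporter positive and to 1053 and 893 FPKM in reporter negative libraries. The 4 keratinocyte connexins made up 98.5% and 98.3% of this sum in reporter positive and 97.1% and 96.2% in reporter negative libraries. Gjb2 held 75.8% and 74.6% in reporter positive, against 53.4% and 48.4% in reporter negative libraries. Gjb6 held 8.94% and 8.68% in reporter positive and 4.33% and 3.31% in reporter negative libraries. The share of Gja1 was 13.4% and 14.6% in reporter positive and 38.5% and 43.3% in reporter negative libraries. Connexin mRNA was thus mostly that of the beta connexins Gjb2 and Gjb6 in reporter positive cells (84.8% and 83.3%), and was divided more evenly between these 2 and Gja1 in reporter negative cells (57.7% and 51.7% for Gjb2 and Gjb6). Gjb5 stayed small, at 0.325% and 0.392% in reporter positive and 0.849% and 1.27% in reporter negative libraries.

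**Figure D3:**
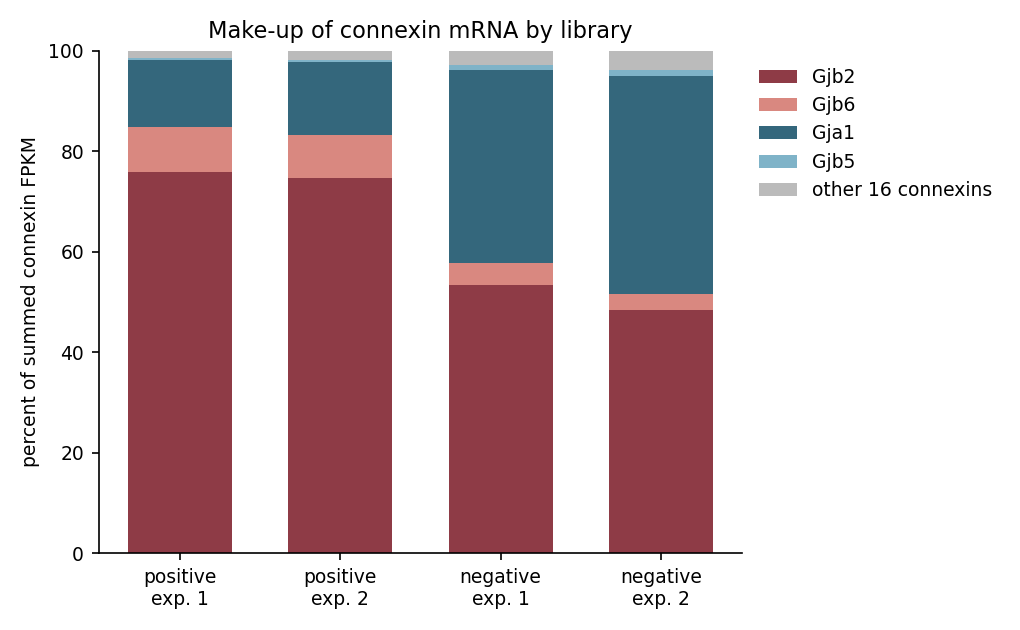
Percent of the summed FPKM of 20 connexin genes (vertical axis) held by each keratinocyte connexin and by the other 16 together, in the 2 reporter positive and the 2 reporter negative libraries. Gjb2 fills 75.8% and 74.6% of the reporter positive bars and 53.4% and 48.4% of the reporter negative bars, and Gja1 takes up most of the difference.

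The files list transcripts assembled from the reads beside annotated ones, and Gja1 and Gjb6 had an assembled form with another first exon. In GENCODE M21 the coding sequence of each of these genes lies in its last exon, and the forms differed in the first exon. For Gja1 the assembled form began with an exon of 41 to 43 bases ending at 56101565 on chromosome 10, joined over an intron of 5774 bases, and 0 transcripts of the gene in GENCODE M21 have an intron of that length. It was found in experiment 1 and in neither library of experiment 2. There it had 40.9 FPKM in the reporter positive library, 17.3% of the gene, and 134 FPKM in the reporter negative library, 33.0% of the gene. The annotated form ENSMUST00000068581 had 195 and 275 FPKM in reporter positive and 272 and 386 FPKM in reporter negative libraries. On that form alone Gja1 had a log2 fold change of -0.48 ± 0.28 (SE, limma adjusted p = 0.432).

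For Gjb6 the assembled form began with an exon of 45 to 46 bases on chromosome 14. The 3′ end of that exon on the minus strand was at 57750824, and an intron of 1022 bases followed. The annotated transcript ENSMUST00000162931, itself listed at 0 in every library, has the same intron, between 57750824 and 57749801. Its first exon, 57750824 to 57750896, holds that of the assembled form. The assembled form was found in the reporter positive library of experiment 1, at 72.2 FPKM. It was also found in the reporter negative library of experiment 2, at 14.4 FPKM. The form ENSMUST00000039380 had 84.5 and 164 FPKM in reporter positive and 45.6 and 15.1 FPKM in reporter negative libraries. Where the assembled form was found it held 46.1% of Gjb6 in the reporter positive and 48.9% in the reporter negative library. Each form was thus found in both reporter groups, and the sum over forms is used for the gene. A form that is not listed for a library may still be made there, and a link of the forms to the reporter was not tested. Gjb2 and Gjb5 each had a single transcript above 0, ENSMUST00000055698 and ENSMUST00000046498.

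**Figure D4:**
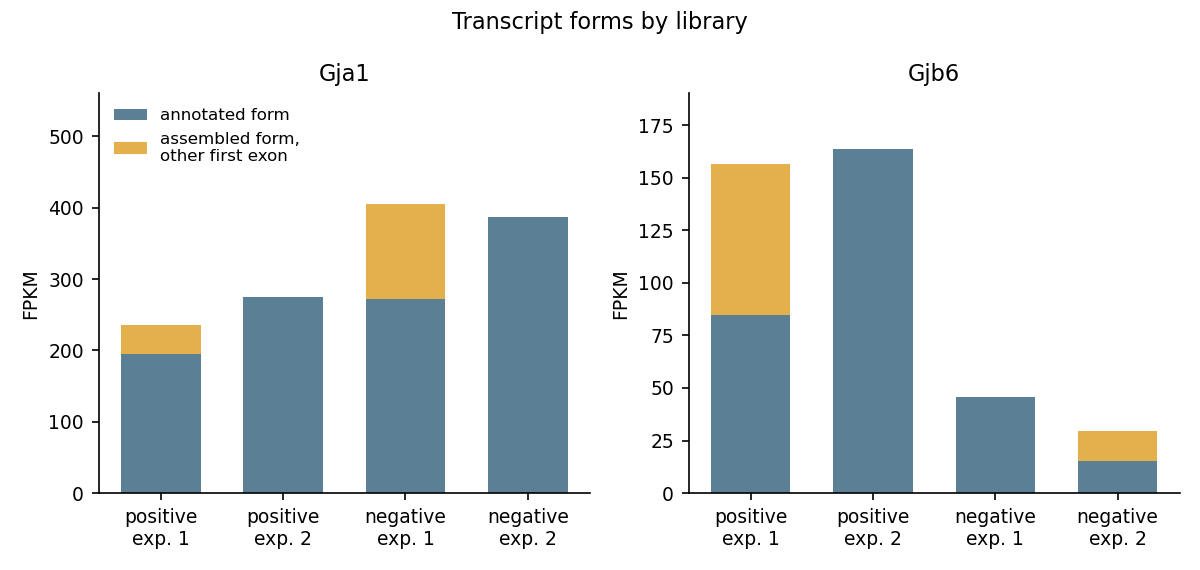
FPKM (vertical axis) of the annotated form (blue) and of the assembled form with another first exon (yellow) of Gja1 and Gjb6, stacked for each library. The yellow part of Gja1 is present in the 2 libraries of experiment 1, and that of Gjb6 in 1 reporter positive and 1 reporter negative library.

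The coding sequences of the family are alike. How many reads could come from more than 1 member was not worked out, since the read length is not known here. No such reads were removed here. Gjb2 and Gjb6, of 681 and 786 coding bases with the stop codon, were identical at 76.8% of aligned coding bases. The longest identical stretch of their whole transcripts was 20 bases. Gja1, the longest at 1149 bases, was 71.0% identical to Gjb2.

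Gjb2 and Gjb6 are neighbours, 18.6 kilobases apart on chromosome 14 and read from the same strand. The other genes within 100 kilobases of them were not tested because of low values. Gja3, which encodes the lens connexin 46, lies on the far side of Gjb2 and was at 0.0408 and 0.286 FPKM in reporter positive and 0.185 and 0.305 FPKM in reporter negative libraries. Gm4491, between Gjb2 and Gjb6, was at 0.0208 and 0.309 FPKM in reporter positive and 0.0470 and 0.0394 FPKM in reporter negative libraries.

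Of the 16 other connexins, 3 were tested, with 0 higher, 0 lower and 3 not passing, and a median difference of 0.22. Gja4, the connexin 37 gene known from endothelium, was at 1.10 and 1.92 FPKM in reporter positive and 1.07 and 1.17 FPKM in reporter negative libraries (0.22, limma adjusted p = 0.610), and its difference was -0.016 without reporter positive replicate 2. The groups overlapped for Gja4. The 13 connexins that were not tested were under 1 FPKM in all libraries, and Gja5, Gja10, Gjd2, Gjd4 and Gje1 were listed at 0 in every library. Pannexins form channels of a similar shape that open to the outside of the cell. Panx1, the pannexin 1 gene, fell to 11.1 and 10.5 FPKM in reporter positive, against 23.4 and 27.8 FPKM in reporter negative libraries (log2 fold change -1.18 ± 0.16, limma adjusted p = 0.0341). With any 1 library left out its adjusted p was 0.0706 to 0.227, and with Ensembl-named transcripts alone the difference was -0.68 (adjusted p = 0.293). Panx2 and Panx3 stayed at or under 0.0517 FPKM.

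**Figure D5:**
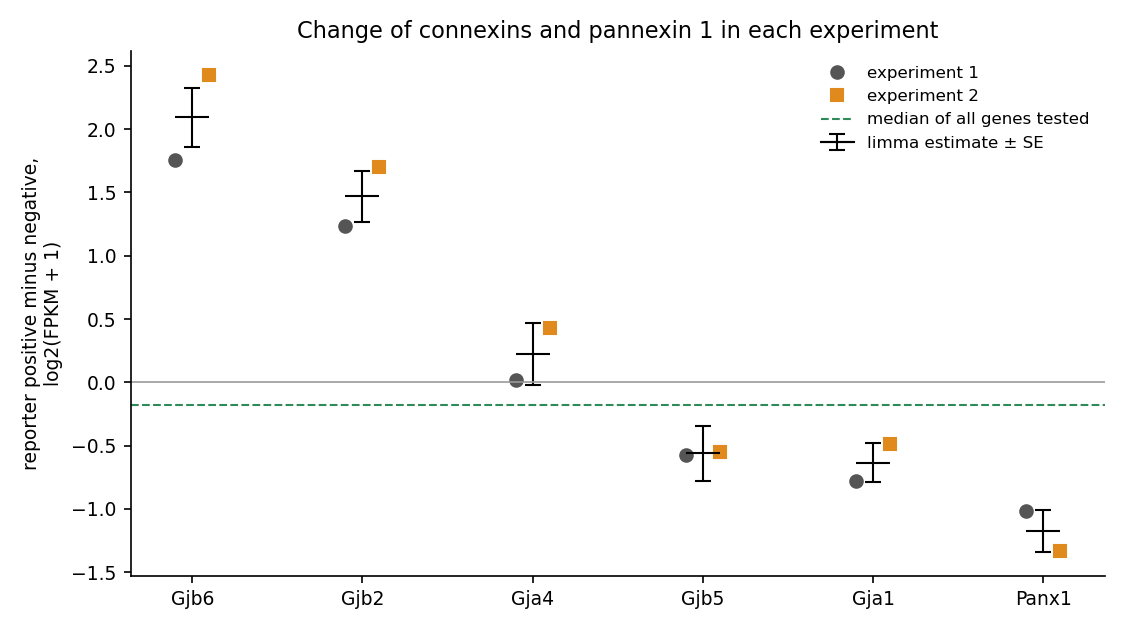
Difference between the reporter positive and the reporter negative library on the log2(FPKM + 1) scale (vertical axis) in experiment 1 (circles) and experiment 2 (squares) for 5 of the connexins tested and Panx1, with the limma estimate ± SE. Gjb6 and Gjb2 lie above 1 in both experiments, Panx1 lies at or below -1 in both, and Gja1, Gjb5 and Gja4 lie between -0.78 and 0.43.

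Connexins are held at the membrane and turned over by scaffold proteins, kinases and ubiquitin ligases. Of 16 such partners 14 were tested, with 0 higher, 0 lower and 14 not passing in limma, and a median difference of 0.20. An unadjusted limma p under 0.05 was found for 4 of these 14, and for 3062 of all 11969 genes tested. Cav1, which encodes the membrane scaffold caveolin 1, was at 39.2 and 53.3 FPKM in reporter positive and 90.8 and 123 FPKM in reporter negative libraries (log2 fold change -1.19, limma adjusted p = 0.0598, and 0.0134 with experiments as blocks). Mapk3, whose kinase ERK1 phosphorylates connexin 43, was at 78.9 and 77.7 FPKM in reporter positive and 51.0 and 51.7 FPKM in reporter negative libraries (0.60, limma adjusted p = 0.0676, and 0.0444 with blocks). In both genes the groups did not overlap, which held for 57.9% of all genes tested.

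Ezr, the gene of the membrane-to-actin linker ezrin, was at 146 and 158 FPKM in reporter positive and 105 and 120 FPKM in reporter negative libraries (0.44, limma adjusted p = 0.149). The groups did not overlap for Ezr either. Tjp1, which encodes ZO-1, the scaffold that binds the tail of connexin 43, was at 21.04 and 14.3 FPKM in reporter positive and 15.4 and 18.2 FPKM in reporter negative libraries (0.05, limma adjusted p = 0.916), and the experiments went opposite ways. Cdh1, which encodes E-cadherin, was at 78.5 and 92.5 FPKM in reporter positive and 61.7 and 84.3 FPKM in reporter negative libraries (0.24, limma adjusted p = 0.511). Cnst, the gene of the connexin trafficking protein consortin, was at 1.99 and 2.50 FPKM in reporter positive and 2.91 and 4.34 FPKM in reporter negative libraries (-0.50, limma adjusted p = 0.277).

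Markers of keratinocyte layers were compared in the same libraries. Of 13 tested suprabasal markers 6 rose, 1 fell and 6 did not pass (median difference 2.40), and the list summed to 9077 and 8588 FPKM in reporter positive and 3578 and 2814 FPKM in reporter negative libraries. Those that rose were Ivl, the involucrin gene of the cornified envelope (61.7 and 75.1 FPKM in reporter positive, 14.4 and 8.67 FPKM in reporter negative libraries), the transglutaminases Tgm1 and Tgm3, the transcription factors Grhl3 and Klf4, and Sbsn, the suprabasin gene (1040.3 and 1095 FPKM in reporter positive, 232 and 129 FPKM in reporter negative libraries). Krtdap, the most abundant member, was at 6592 and 5891 FPKM in reporter positive and 3024 and 2404 FPKM in reporter negative libraries without passing (limma adjusted p = 0.0711, and 0.0150 with experiments as blocks). With the blocks 9 suprabasal markers rose and 1 fell. Dsc1, the member counted as lower, was listed at 0 in both reporter positive libraries and at 4.57 and 6.41 FPKM in the reporter negative ones. With Ensembl-named transcripts alone Dsc1 was too low to be tested. Its reporter negative values thus rested at least in part on transcripts placed by exon overlap. Lor, the loricrin gene of the outermost layers, was at 2.33 and 4.08 FPKM in reporter positive and 4.68 and 1.58 FPKM in reporter negative libraries. Flg, the filaggrin gene of the same layers, was at 0.938 and 0.654 FPKM in reporter positive and 2.09 and 0.324 FPKM in reporter negative libraries. For both genes the experiments went opposite ways. Of 10 tested basal markers 0 rose, 1 fell and 9 did not pass (median -0.61), with sums of 1082 and 1213 FPKM in reporter positive and 1945 and 2207 FPKM in reporter negative libraries. With the experiments as blocks 4 fell. Without reporter positive replicate 2 or reporter negative replicate 2, 0 suprabasal markers passed, and 0 basal or fibroblast markers passed with any 1 library left out. Col17a1, the hemidesmosomal collagen, was the one that fell, at 259 and 250 FPKM in reporter positive and 723 and 775 FPKM in reporter negative libraries. Itga6, of the sorting gate, was at 181 and 205 FPKM in reporter positive and 331 and 410 FPKM in reporter negative libraries (limma adjusted p = 0.0565, and 0.0190 with experiments as blocks). The part of cell layers in the values of Gjb2 and Gjb6 was not tested. Markers of other lineages were low: leukocyte markers summed to 7.91 and 17.0 FPKM in reporter positive and 7.11 and 8.01 FPKM in reporter negative libraries, led by Cd68 and Lyz2, and melanocyte markers to at most 1.56 FPKM.

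By pattern over the 4 libraries, the 4 connexins lay nearer in pairs with the same direction of difference. Other genes lay nearer still to each of them. As the distance between log2(FPKM + 1) values centred on each gene, Gja1 and Gjb5 were 0.286 apart and Gjb2 and Gjb6 were 0.645 apart, while the distances between these pairs were 2.10 to 2.76. Among protein-coding genes with a mean of at least 5 FPKM, Gjb2 was closest to Slc10a6, a steroid sulfate transporter gene (distance 0.0709), Psapl1 (0.0861) and Metrnl, which encodes a secreted protein (0.120). Slc10a6 was at 9.48 and 10.8 FPKM in reporter positive and 3.43 and 2.43 FPKM in reporter negative libraries. Gjb6 was closest to Myo5b, a vesicle motor gene (0.0949), the small GTPase gene Rhov (0.128) and Cysrt1 (0.192). Rhov was at 61.0 and 58.1 FPKM in reporter positive and 17.8 and 11.1 FPKM in reporter negative libraries. Gja1 was closest to Mab21l3 (0.0234), Nradd (0.0463) and Trip10, which encodes a membrane-bending adaptor (0.0526). Nradd was at 20.5 and 23.3 FPKM in reporter positive and 34.4 and 33.0 FPKM in reporter negative libraries. Gjb5 was closest to Nisch, which encodes nischarin (0.0422), Gm20716 (0.0490) and Acbd5, a peroxisomal membrane protein gene (0.0571). These likenesses rest on 4 values a gene and are given as a description.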

How the data were processed

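RNA of sorted cells was made into Illumina mRNA libraries, and the reporter state in each title gave its group. The submitters' processing notes name TopHat, Cufflinks and build mm9, and the authors deposited the FPKM of each transcript. Versions, read length and strand are not given in the sources used. Each value has other attributes beside it in 1 text column, per the file headers. Coverage over FPKM gave 3.13 to 3.75 aligned gigabases a library, and the number of reads is unknown.

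FPKM was summed per gene over transcripts of at least 200 exonic bases with Python 3.11.15 and pandas 2.3.3. Ensembl transcripts were named through GENCODE M21, used for names and exon structure only. Assembled or unnamed transcripts were given to a same-strand gene if its exons covered at least 50% of them. Leaving them out is an alternative. Those given to a gene held 11.8% to 13.3% of the FPKM of transcripts of at least 200 exonic bases. Shorter transcripts, which were left out, held 95.1% to 98.9% of all FPKM in a library. All genes reaching 1 FPKM in 2 or more libraries entered limma 3.58.1 (R 4.3.3, trend) on log2(FPKM + 1), two-sided, with Benjamini-Hochberg adjustment over 11969 genes and no block. The test was checked on simulated data. The title numbers mark a shared experiment, and deviations of same-numbered libraries correlated across genes (r = 0.174, 11969 genes), so the experiment block is an alternative. Other alternatives were pseudocounts, filters, scaling and each library left out. Promoters are from RefSeq; 4 of 4 connexins matched.

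The connexins, the gene lists and the rule for named genes were chosen with earlier results of these data known. Named were the 4 connexins, other connexins and pannexins at 1 FPKM or more, the 4 partners with the smallest p besides Tjp1, Cdh1 and Cnst, marker genes that passed or were abundant, and the 3 genes most like each connexin. Krt5 and Krt14 were not analysed here, and some genes that this rule names are not reported here.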

Additional observations from a re-analysis of the deposited data

How the results depend on the processing

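The directions of Gja1, Gjb2, Gjb5 and Gjb6 were the same under each of the 18 alternatives run. Those of Cav1, Mapk3, Ezr and Cdh1 were too, as was that of Cnst in the 17 that gave it a value. Gjb2 no longer passed with no filter on low values (log2 fold change 1.47, limma adjusted p = 0.104), with Ensembl-named transcripts only (1.47, 0.0794) and with median-of-ratios scaling together with the replicate block, an alternative chosen after seeing the data (1.71, 0.0523). With 1 library left out its log2 fold change was 1.28 to 1.66. Gjb6 no longer passed with no filter (2.09, 0.0853), Ensembl-named transcripts only (2.11, 0.220) and the most abundant transcript per gene (2.11, 0.141), and was 1.79 to 2.40 with 1 library left out. Gja1 passed with the replicate block (-0.63, adjusted p = 0.0478) and in no other of its alternatives. Tjp1 turned to -0.10 with Ensembl-named transcripts, to -0.06 without reporter negative replicate 1 and to -0.21 without reporter positive replicate 1 (highest value with a library left out 0.32). Gja4 turned to -0.016 without reporter positive replicate 2 (highest 0.46).

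The number of genes passing, 607, was 1250 with the replicate block, 4 with no filter, 95 with Ensembl-named transcripts, 312 with the most abundant transcript, 1209 without genes listed at 0 and 973 with robust variances. Leaving out a reporter positive library gave 74 (replicate 1) or 45 (replicate 2), and leaving out a reporter negative library gave 179 (replicate 1) or 3 (replicate 2); there the lone library is taken to vary like the other group. Among 607 genes 305 were higher, against 455 of 657 with median-of-ratios scaling and 407 of 659 with quantile normalization. Partners passing numbered 2 with the replicate block and 1 with median-of-ratios scaling or quantile normalization, against 0. Basal markers passing numbered 4 with the block, and 0 with Ensembl-named transcripts or any library left out, against 1. Suprabasal markers passing numbered 2 with Ensembl-named transcripts and 0 to 6 with a library left out, against 7. Fibroblast markers (2) and pannexins (1) had 0 passing in those settings. The block changed no other call of a gene named here among the connexins, pannexins and partners. With 2 libraries a group, a gene that missed the threshold may still differ.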
